A study of Mus musculus with 14 samples.

Results

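Interferon-induced GTPases are enzymes that cells make in large amounts after contact with interferons. The 10 genes described here were Gbp2, Gbp3, Gbp5, Gbp7 and Gbp11 of the guanylate-binding proteins (GBPs) and Iigp1, Irgm1, Irgm2, Igtp and Tgtp2 of the immunity-related GTPases (IRGs). They were taken by symbol, and all 10 were found among the 55291 symbols of both deposited tables of estimated counts. The choice was made with their levels and changes in these libraries known, so their own values are given as a description, without a test.

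Messenger RNA was sequenced in 14 mouse libraries from 2 experiments. In the first, whole splenocytes came from OT-1 mice, a strain with a transgenic T cell receptor that recognises a peptide of ovalbumin, and were given that peptide (1 µg/mL) with interleukin-2 (200 U/mL). Of these cultures, 4 also had ND-646 (100 nM) and 4 had vehicle (DMSO), over 3 days of activation and 4 days of expansion. ND-646 blocks acetyl-CoA carboxylase (ACC), the enzyme that makes malonyl-CoA for fatty acid synthesis. In the second, CD8+ T cells were sorted from MCA205 fibrosarcomas (3 libraries) and from spleens (3 libraries) of C57BL/6 mice 14 days after the tumour cells were implanted. All samples were labelled wild type, and the labels name no added interferon in either experiment. The cultures began as whole splenocytes rather than purified T cells, and the tumour samples were pooled in a way that is not described. The labels give neither the animals' age nor whether replicates were separate animals or cultures, and the errors below measure the spread between libraries, which may be technical.

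Library totals averaged 30.3 ± 2.84 M estimated counts in ND-646 cultures and 25.2 ± 2.6 M in vehicle cultures (SD, n = 4 each), and 20.3 ± 0.724 M in tumour and 20.2 ± 0.509 M in spleen libraries (SD, n = 3 each). Levels are given in CPM, counts scaled to a total of 1e+06 per TMM-scaled library. A count of 3, the most that a count of 0 allows, came to 0.0887 to 0.153 CPM across libraries, counting error only. The 15 CD8 identity genes were abundant in all groups, summing to 5761 to 6057 CPM in ND-646 and 6382 to 6664 CPM in vehicle cultures, and Cd8a stood at 962 ± 164 CPM in tumour and 1548 ± 17.8 CPM in spleen libraries. The tumour libraries also held much RNA of fibroblast and fibrosarcoma markers, which summed to 10512 to 15255 CPM over 13 genes, against 2.04 to 17.1 CPM in spleen. ND-646 cultures 1 and 4 resembled each other over all genes (chi-square per degree of freedom 5.07), as did 2 and 3 (3.65), more than cultures across these pairs (7.37 to 11.3), and the labels name no batch that these pairs could be set against.

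GBPs and IRGs act within the cell against microbes that live in vacuoles and against bacteria in the cytosol. GBPs are large GTPases that coat such microbes and promote caspase-11 (Casp4) inflammasome signalling. The IRGs fall into effectors, here Iigp1 (Irga6) and Tgtp2 (Irgb6), which load onto vacuoles and break them, and regulators, here Irgm1, Irgm2 and Igtp (Irgm3), which keep the effectors inactive on the cell's own membranes. Interferon gamma turns the genes on through its receptor and the kinases Jak1 and Jak2. Their promoters can hold a gamma-activated site and an interferon-stimulated response element, and Irf1 and a complex with Irf9 bind the response element. T cells both secrete interferon gamma and respond to it.

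The members lie in clusters. Gbp2, Gbp3, Gbp5 and Gbp7 sit on chromosome 3, Gbp11 with Gbp4, Gbp6, Gbp8, Gbp9 and Gbp10 on chromosome 5, and Irgm1, Irgm2, Igtp and Tgtp2 on chromosome 11. Iigp1 is in a cluster apart from these, with Gm4951. Promoter sequence (250 bases before to 50 after the start, RefSeq, GRCm38.p6) was at hand for 8 members, all but Gbp11 and Iigp1. All 8 held the response element on one strand or the other, searched as GAAA, any 2 bases and GAAA, a motif found in 3.99% of 27025 genes with such a window. The gamma-activated site, written TTCNNNGAA, stood in 5 of the 8 (Gbp5, Gbp7, Irgm2, Igtp and Tgtp2), against 9.55% of all genes. A match shows that the letters are present, not that a factor binds. The stretch around each response element is shown because it is the sequence feature that these 8 members share. Each reads 5′ to 3′ on the gene's strand, with the element in capitals, where TTTC marks an element on the opposite strand.
Gbp2, chr3:142620589-142620628, plus strand: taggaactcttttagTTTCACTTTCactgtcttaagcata
Gbp3, chr3:142559984-142560029, plus strand, with overlapping matches: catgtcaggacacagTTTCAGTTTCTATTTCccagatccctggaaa
Gbp5, chr3:142496754-142496793, plus strand: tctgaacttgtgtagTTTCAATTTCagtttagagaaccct
Gbp7, chr3:142530268-142530307, plus strand: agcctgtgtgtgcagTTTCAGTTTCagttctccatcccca
Irgm1, chr11:48871421-48871465, minus strand, with overlapping matches: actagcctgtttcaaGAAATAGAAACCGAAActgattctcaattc
Irgm2, chr11:58214898-58214937, plus strand: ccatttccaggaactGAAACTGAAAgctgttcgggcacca
Igtp, chr11:58199507-58199546, plus strand: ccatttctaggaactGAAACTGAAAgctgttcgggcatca
Tgtp2, chr11:49064258-49064297, minus strand: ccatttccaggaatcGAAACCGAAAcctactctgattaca

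In the 4 GBP promoters the element lay on the strand opposite the gene, and in the 4 IRG promoters on the gene's own strand. The Irgm2 and Igtp stretches were identical at 38 of 40 bases, and the Irgm2 and Tgtp2 stretches at 29 of 40. Among the GBPs, Gbp2 and Gbp5 were identical at 24 of 40, Gbp5 and Gbp7 at 22, and Gbp2 and Gbp7 at 17. Each stretch was cut around the searched motif, so its fixed bases match by construction in such pairs. Irgm2, Igtp and Tgtp2, and outside the members Tgtp1 and Gm12185, also shared an arrangement in which a gamma-activated site came just before the response element. It spanned bases -45 to -37 before the Igtp start with the response element at -34 to -25, -75 to -67 and -64 to -55 in Irgm2, and -81 to -73 and -70 to -61 in Tgtp2. The 250 bases before the Igtp start show both in capitals, at chr11:58199306-58199555 on the plus strand.
Igtp: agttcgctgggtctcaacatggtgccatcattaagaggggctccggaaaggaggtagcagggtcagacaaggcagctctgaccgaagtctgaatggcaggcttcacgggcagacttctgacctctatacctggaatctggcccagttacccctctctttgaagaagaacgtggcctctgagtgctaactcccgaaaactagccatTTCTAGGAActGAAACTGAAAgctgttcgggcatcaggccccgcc

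Gbp2 had the response element at -59 to -50 and no match to TTCNNNGAA in the window. Gbp7 had it at -53 to -44, with gamma-activated sites at -106 to -98 and -87 to -79. In Gbp5 the response element lay farther out, at -165 to -156, with gamma-activated sites on either side of it, at -245 to -237 and -52 to -44. Gbp3 also has another annotated start, whose window held no match. Of 8 other family genes with a promoter entry, 5 held the response element and 3 the gamma-activated site. In Tgtp1 the site spanned -88 to -80 and the response element -77 to -68, and in Gm12185 they spanned -86 to -78 and -75 to -66.

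**Figure D1:**
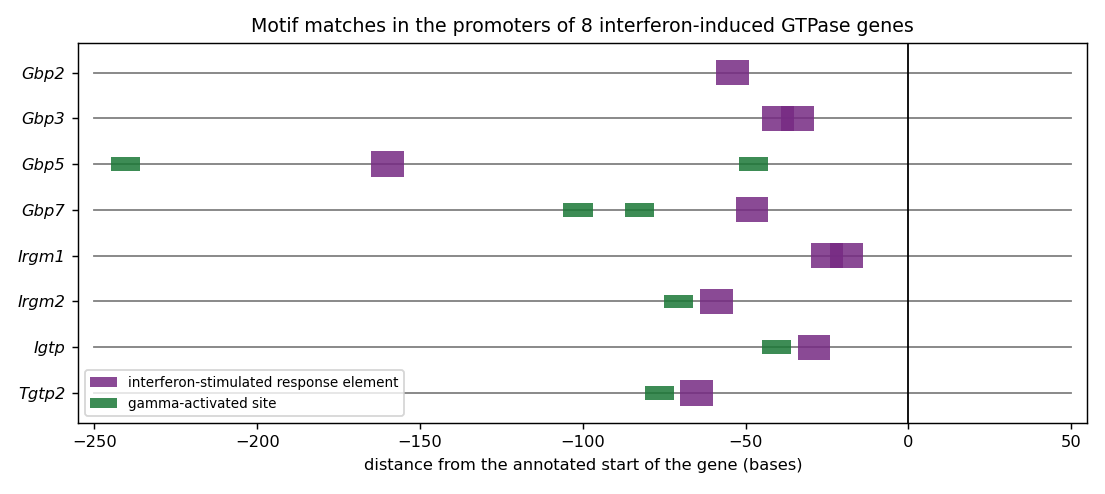
Position of each match to the interferon-stimulated response element and the gamma-activated site in the promoter window of the 8 members with an entry, in bases from the transcription start (horizontal axis). The 8 members hold at least 1 response element match each, and 5 hold a gamma-activated site.

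The cultures compare the transcripts of activated splenocytes kept with ND-646 and with vehicle. Whether the differences follow from the block of ACC was not tested. Members were higher in ND-646 than in vehicle cultures in 9 of 10 cases, with Gbp11 and Iigp1 far ahead of the rest and Gbp3 as the exception. The calls are those of edgeR's quasi-likelihood test at a Benjamini-Hochberg adjusted p of 0.05, under which 56.3% of the 14251 genes tested were called, 29.8% higher and 26.5% lower. Of all calls 52.9% were higher, a share that was 69.0% when libraries were scaled to their CD8 identity genes. Because the members were chosen on this contrast, nothing is read from their count. Their median log2 fold change was 0.51, against 0.01 over all genes tested. Summed over the 10 members, levels ran from 748 to 934 CPM in ND-646 cultures and from 532 to 617 CPM in vehicle cultures.

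Gbp11 stood at 71.8, 58.1, 52.0 and 77.5 CPM in ND-646 cultures 1 to 4, against 11.5, 10.9, 13.8 and 10.01 CPM in vehicle cultures 1 to 4. Every ND-646 culture was far above every vehicle culture, and the log2 fold change was 2.49 ± 0.17 (SE, n = 4 each), or 5.62-fold. Gbp11 is annotated as a transcribed pseudogene in RefSeq, and 34.3% of its 31-base words also occur in other transcripts, most often in Gbp8. Its reads could therefore be split differently by another counting method. When Gbp6, Gbp10 and Gbp11 were summed before fitting, the log2 fold change was 1.56. Most of that sum was Gbp6 (586 CPM in ND-646 and 207 CPM in vehicle cultures) and Gbp8 was not in it, so it cannot check Gbp11 itself.

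Iigp1, an effector IRG, had 28.4, 22.4, 22.1 and 30.7 CPM in ND-646 cultures and 5.65, 4.79, 7.82 and 6.26 CPM in vehicle cultures. The groups were well apart, with a log2 fold change of 2.09 ± 0.16 (SE, n = 4 each), or 4.25-fold. Only 6.90% of its 31-base words were shared with other transcripts. Its neighbour Gm4951, a further IRG gene, was scarcer and rose by 3.05 ± 0.22 on the log2 scale, with 2.94 CPM in ND-646 and 0.352 CPM in vehicle cultures (edgeR adjusted p = 2.05e-09). Another IRG gene of that cluster, F830016B08Rik, was below the filter on low counts, at 0.35 to 0.57 CPM in ND-646 cultures and at most 0.043 CPM in vehicle cultures.

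Among the regulators, Irgm1 had 91.7, 77.2, 75.1 and 94.1 CPM in ND-646 cultures, against 52.3, 48.2, 59.4 and 49.6 CPM in vehicle cultures. Igtp, the most abundant member per kilobase in the cultures, had 280, 229, 222 and 296 CPM in ND-646 cultures and 184, 195, 201 and 194 CPM in vehicle cultures. Irgm2 had 68.7, 62.8, 65.9 and 73.1 CPM with ND-646 and 46.6, 48.3, 54.0 and 53.2 CPM with vehicle. For all 3 regulators the lowest ND-646 culture was above the highest vehicle culture, as it was for 8 of the 10 members and for 27% of all genes tested (24.1% lay wholly below). Their log2 fold changes were modest, at 0.69 ± 0.09 for Irgm1, 0.42 ± 0.05 for Irgm2 and 0.41 ± 0.10 for Igtp (SE, n = 4 each).

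The effector Tgtp2 had 80.5, 62.1, 60.5 and 77.8 CPM in ND-646 cultures and 46.1, 43.1, 61.8 and 51.6 CPM in vehicle cultures. Here the groups overlapped, since vehicle culture 3 exceeded ND-646 culture 3, and the log2 fold change of 0.48 ± 0.15 (SE, n = 4 each) was the 1 of the 9 calls that leaving out a single library could end. It was lost without ND-646 culture 1 or 4 and without vehicle culture 1, 2 or 4. Tgtp2 shared 89.2% of its 31-base words with Tgtp1, so the pair can be counted only together with confidence. Their summed level was 161, 123, 124 and 154 CPM in ND-646 cultures and 89.8, 86.4, 125 and 108 CPM in vehicle cultures, a log2 fold change of 0.46.

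The chromosome 3 GBPs were also higher by modest amounts, Gbp3 excepted. Gbp2 had 75.0, 62.5, 59.2 and 73.0 CPM in ND-646 cultures and 42.4, 40.3, 55.4 and 48.1 CPM in vehicle cultures. Gbp5, which promotes inflammasome assembly, had 40.1, 38.7, 41.4 and 43.7 CPM with ND-646 and 27.5, 25.8, 30.8 and 27.9 CPM with vehicle. Both were higher in every ND-646 culture, with log2 fold changes of 0.54 ± 0.12 for Gbp2 and 0.55 ± 0.06 for Gbp5 (SE, n = 4 each). Gbp7 averaged 133 ± 5.43 CPM in ND-646 and 98.9 ± 5.5 CPM in vehicle cultures (SD, n = 4 each), a log2 fold change of 0.42 ± 0.04, again without overlap. Gbp3 was the member that was not called. It had 28.7, 23.7, 23.0 and 28.5 CPM in ND-646 cultures and 27.0, 24.5, 28.0 and 28.4 CPM in vehicle cultures, which overlapped throughout, with a log2 fold change of -0.05 ± 0.08 that turned to 0.05 when libraries were scaled to their CD8 identity genes.

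**Figure D2:**
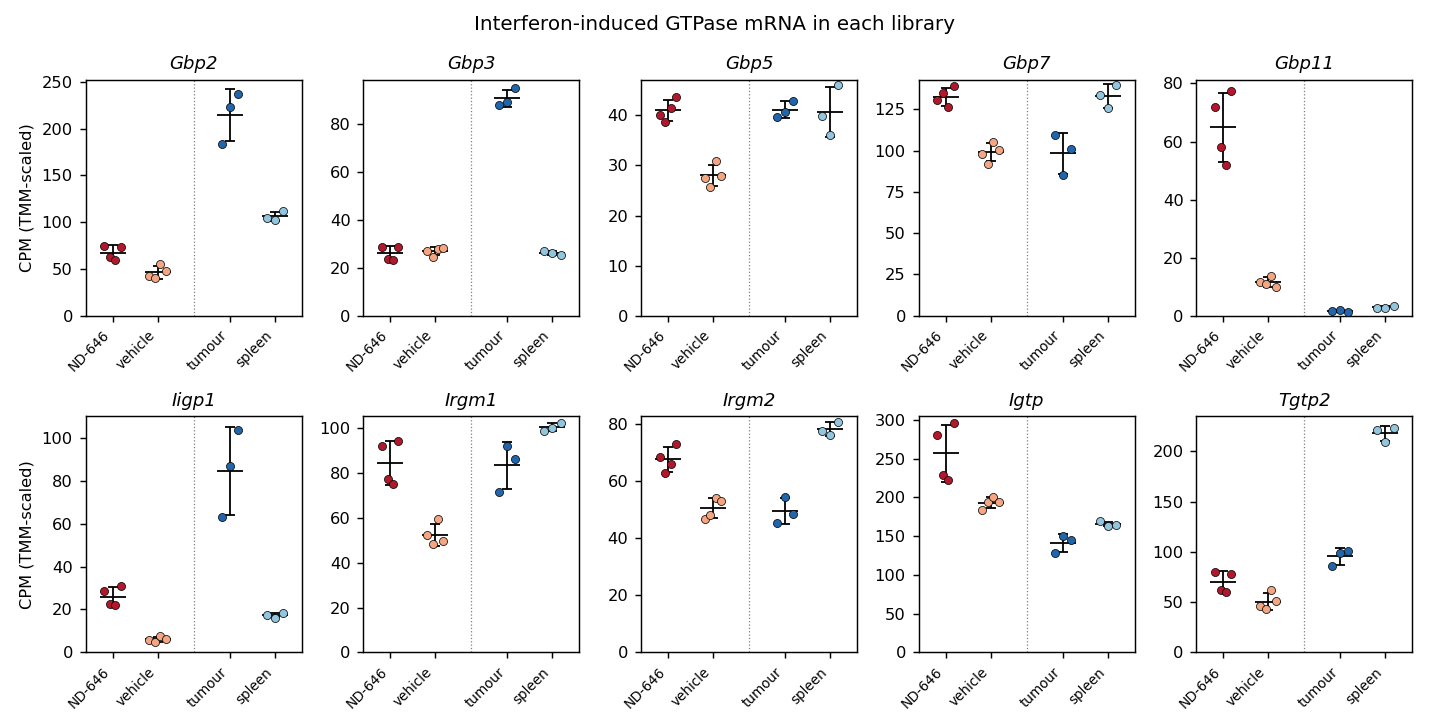
Level of each member in every library (CPM, vertical axis), with ND-646 left of vehicle and tumour left of spleen; points are libraries and bars are group means with their SD. Gbp11 and Iigp1 separate ND-646 from vehicle cultures most widely, whereas Gbp2, Gbp3 and Iigp1 are the members higher in tumour than in spleen.

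The rise with ND-646 was also seen in family genes outside the 10 members. Of 16 such genes, 12 were tested, and 8 were higher, none lower and 4 not called, with a median log2 fold change of 0.66. Over all genes tested, 29.8% were called higher and 26.5% lower. All 5 further GBPs of chromosome 5 rose. Gbp6 averaged 586 ± 61 CPM in ND-646 and 207 ± 15 CPM in vehicle cultures (SD, n = 4 each), a log2 fold change of 1.5 ± 0.08 (SE; edgeR adjusted p = 5.85e-08). Gbp10 rose by 1.40 ± 0.10 (adjusted p = 1.74e-07), Gbp8 by 0.82 ± 0.05 (9.54e-11), Gbp9 by 0.81 ± 0.05 (6.14e-10) and Gbp4 by 0.59 ± 0.04 (2.68e-09), all by edgeR's test over all genes. Gbp10 shares 80.8% of its 31-base words with Gbp6, so these values are not independent of each other. With Gbp11, the 6 chromosome 5 genes ran from 0.59 to 2.49 with a median of 1.11, whereas the 4 chromosome 3 genes ran from -0.05 to 0.55 with a median of 0.48. The difference between the clusters was not tested.

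On chromosome 11, Gm12185 rose by 0.72 ± 0.13 on the log2 scale (edgeR adjusted p = 0.000116). Tgtp1 at 0.44 ± 0.16 (adjusted p = 0.0578), Gm12250 (Irgb10) at 0.21 ± 0.09 (0.0577), 9930111J21Rik1 at -0.27 ± 0.17 (0.225) and 9930111J21Rik2 at -0.17 ± 0.09 (0.121) were not called by edgeR. Irgq, a distant relative on chromosome 7, rose by 0.33 ± 0.06 (adjusted p = 7.08e-05). Among other interferon-induced GTPases, 3 of 4 tested were higher, among them Mx2, an antiviral dynamin-like GTPase, at 1.10 ± 0.406 CPM in ND-646 and 0.440 ± 0.224 CPM in vehicle cultures (edgeR adjusted p = 0.00504), and the giant GTPase Gvin1, by 0.30 ± 0.07 on the log2 scale (0.00584).

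**Figure D3:**
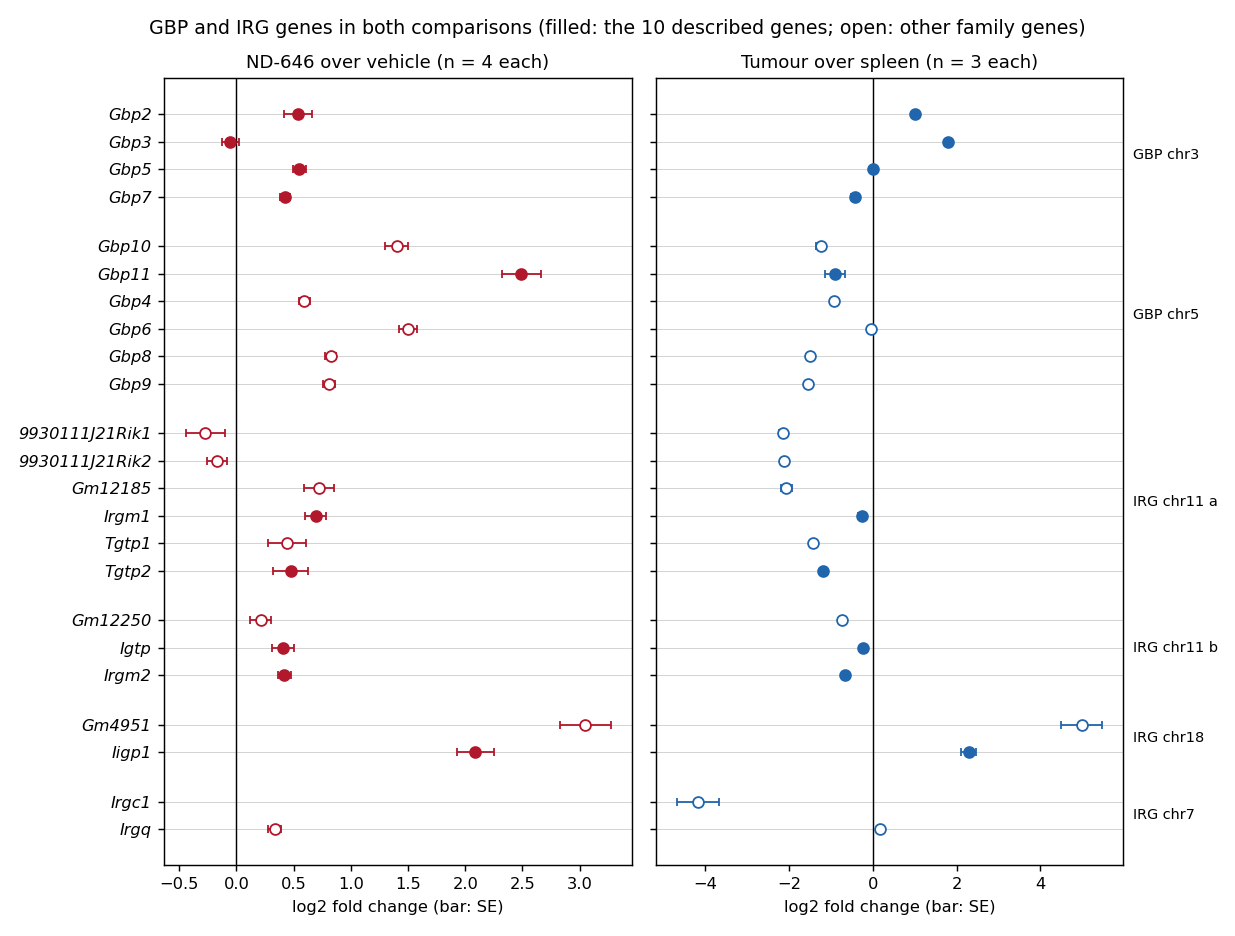
Log2 fold change of each tested GBP and IRG gene except F830016B08Rik, which had no count in spleen (horizontal axis, TMM scaling; bars are SE), ND-646 over vehicle and tumour over spleen, with members and other family genes marked and genes grouped by chromosome. With ND-646 the chromosome 5 GBPs run from 0.59 to 2.49, and in the tumour comparison they run from -1.55 to -0.04, where Gbp4, Gbp6 and Gbp11 turn positive under CD8 identity scaling.

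The other genes of the interferon pathway were looked at in the same fit, beginning with the ligand. The counts by list that follow stand beside 29.8% of all genes called higher and 26.5% lower. Ifng, which T and NK cells secrete, fell to 6.78 ± 0.943 CPM in ND-646 cultures, against 14.4 ± 2.44 CPM in vehicle cultures (SD, n = 4 each), a log2 fold change of -1.09 ± 0.13 (SE; edgeR adjusted p = 8.39e-06). It was the 1 ligand of 8 that passed the filter on low counts. The receptor chains rose, Ifngr2 to 14.1 ± 1.40 CPM against 5.22 ± 0.216 CPM in vehicle (log2 fold change 1.43 ± 0.09, adjusted p = 1.54e-10) and Ifngr1 by 0.61 ± 0.04 (1.94e-09), by edgeR's test. The ligand was thus lower and both receptor chains higher in the ND-646 cultures.

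Of 6 genes of the gamma receptor and its signalling, 4 were higher, 1 lower and 1 not called, with a median log2 fold change of 0.27. Jak2 rose by 0.23 ± 0.05 (log2 fold change ± SE, n = 4 each; adjusted p = 0.000391), and Jak1 at -0.08 ± 0.04 (0.065) was not called by edgeR. Irf1, a factor that binds the response element, rose by 0.31 ± 0.10 (edgeR adjusted p = 0.0275), but its call was lost without ND-646 culture 1 and without vehicle culture 1, 2 or 4 (adjusted p between 0.0614 and 0.113). Irf8, a related factor of myeloid, B and activated T cells, fell by 1.12 ± 0.05 on the log2 scale (adjusted p = 3.49e-12, edgeR). The type I receptor and the response element complex gave 4 higher and 1 not called of 5, with Ifnar2 at 0.51 ± 0.04 (7.9e-09) and Irf9 at 0.77 ± 0.07 (9.29e-07), edgeR adjusted p in parentheses.

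Of 8 inhibitors of interferon signalling, 4 were higher, 2 lower and 2 not called. Usp18, which damps the type I receptor, rose by 1.33 ± 0.21 (edgeR adjusted p = 3.32e-05), and the phosphatase Ptpn6 fell by 0.44 ± 0.05 on the log2 scale (8.3e-07). Target genes of interferon gamma other than GTPases gave 9 higher, 2 lower and 3 not called of 14 tested, with a median of 0.16. Psmb9, an immunoproteasome subunit, rose by 0.69 ± 0.04 (adjusted p = 2.13e-10), and Pml, a nuclear body protein, fell by 0.69 ± 0.04 on the log2 scale (2.51e-11), by edgeR. Type I targets gave 15 higher, 1 lower and 3 not called of 19 tested, with a median of 0.56, among them the RNA sensors Ifih1 at 0.78 ± 0.06 (2.38e-09) and Ddx58 at 0.56 ± 0.04 (1.14e-09).

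Partners of the GTPases moved as well. Of 10 genes of the autophagy conjugation machinery, on which correct loading of the IRGs depends, 7 were higher and 3 not called, with a median log2 fold change of 0.18. Gabarapl1 rose by 0.61 ± 0.03 (edgeR adjusted p = 5.02e-11) and Atg12 by 0.52 ± 0.04 (1.66e-08). Of 7 inflammasome genes tested, 5 were higher, 1 lower and 1 not called, with a median of 0.73. Casp4, the caspase that GBPs help to activate, averaged 19.2 ± 1.04 CPM in ND-646 and 8.5 ± 0.674 CPM in vehicle cultures, a log2 fold change of 1.18 ± 0.07 (edgeR adjusted p = 2.08e-10), and Casp1 rose by 0.73 ± 0.07 (7.66e-08).

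Markers of other cells also differed between the cultures. The 15 macrophage, monocyte and neutrophil markers summed to 55 to 67 CPM in ND-646 and 241 to 255 CPM in vehicle cultures. Of 5 tested, 4 were lower and 1 not called. Most of the sum was Spp1, at 54.1 CPM in ND-646 and 229 CPM in vehicle cultures, a gene that activated T cells also make. Of these markers, C1qc, S100a8 and S100a9 had no count in any of the 8 cultures. Dendritic cell markers summed to 4.63 to 6.17 CPM in ND-646 and 11.3 to 14.0 CPM in vehicle cultures. Of 5 tested, Xcr1 (0.181 CPM in ND-646 and 4.53 CPM in vehicle) and Itgax (0.564 and 5.29 CPM) were lower. Zbtb46 was higher (2.81 and 0.976 CPM), and 2 were not called. B cell markers summed to 147 to 173 CPM in ND-646 and 113 to 129 CPM in vehicle cultures. Most of that sum was Ighm (162 CPM in ND-646 and 115 CPM in vehicle), the 1 higher of 5 tested, and the other 4 were lower. NK and gamma delta T cell markers summed to 169 to 178 CPM in ND-646 and 164 to 172 CPM in vehicle cultures, but most of that sum was Trdc, the delta chain constant gene, which was higher at 160 CPM in ND-646 and 135 CPM in vehicle cultures. Of the 5 tested, 3 were lower, namely Fcer1g (2.86 CPM in ND-646 and 14.4 CPM in vehicle), Klrb1c (1.36 and 4.69 CPM) and Sox13 (7.39 and 11.1 CPM), and 1 was not called. CD4 and regulatory T cell markers summed to 879 to 903 CPM in ND-646 and 1295 to 1318 CPM in vehicle cultures, most of it Il2ra, which activated CD8 T cells also make (583 CPM in ND-646 and 1008 CPM in vehicle), with Cd4 itself at 0.480 and 1.33 CPM. Endothelial markers summed to 25.4 to 28.5 CPM in ND-646 and 34.6 to 41.1 CPM in vehicle cultures, nearly all of it Pecam1, which lymphocytes also make, with Cdh5 and Cldn5 at 0 in all 8 cultures. The part of these shifts in the values of the GTPases and their pathway was not tested. In such bulk samples, fewer cells of a type and less RNA per cell cannot be told apart.

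The sorted cells address how tumour CD8+ T cells differ from splenic ones. Here the members split: Gbp2, Gbp3 and Iigp1 were higher in tumour, Gbp5 was not called, and Gbp7, Gbp11, Irgm1, Irgm2, Igtp and Tgtp2 were lower, where the last 6 and Gbp5 depended on the scaling of the libraries. edgeR called 83.8% of the 15042 genes tested, 43.6% higher and 40.2% lower in tumour, and since the members were chosen on this contrast too, nothing is read from their counts. The members' median log2 fold change was -0.25 (-0.12 without tumour library 1), against 0.03 over all genes. Their summed level was 817 to 962 CPM in tumour and 858 to 916 CPM in spleen libraries, ranges that overlap.

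Iigp1 had 63.0, 86.6 and 104 CPM in tumour libraries 1 to 3, against 17.5, 16.2 and 18.2 CPM in spleen libraries 1 to 3. The lowest tumour library was well above every spleen library, with a log2 fold change of 2.29 ± 0.18 (SE, n = 3 each), or 4.87-fold. Gbp3 had 87.9, 88.9 and 94.7 CPM in tumour and 27.0, 26.2 and 25.5 CPM in spleen libraries, a log2 fold change of 1.79 ± 0.06. Gbp2 had 184, 223 and 237 CPM in tumour and 105, 102 and 112 CPM in spleen libraries, a log2 fold change of 1.01 ± 0.09. For these 3 genes every tumour library was above every spleen library, as was the case for 44.6% of all genes tested.

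Tgtp2 went the other way, with 86.2, 99.4 and 101 CPM in tumour against 221, 209 and 224 CPM in spleen libraries. Its log2 fold change was -1.19 ± 0.07 (SE, n = 3 each), and the sum of Tgtp1 and Tgtp2 gave -1.29. Gbp11 was scarce in both groups, at 1.68, 1.85 and 1.15 CPM in tumour and 2.65, 2.74 and 3.34 CPM in spleen libraries, a log2 fold change of -0.90 ± 0.24. These levels lay below those of either set of cultures, although the 2 tables were fitted apart and levels across them were not tested.

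The regulators were lower in tumour by smaller amounts. Irgm2 had 45.5, 54.6 and 48.4 CPM in tumour and 77.6, 76.1 and 80.9 CPM in spleen libraries, a log2 fold change of -0.66 ± 0.07 (SE, n = 3 each). Igtp had 128, 150 and 146 CPM in tumour and 169, 163 and 165 CPM in spleen libraries, and Irgm1 had 71.6, 92.1 and 86.4 CPM in tumour and 98.5, 100 and 102 CPM in spleen libraries. For all 3, every tumour library was below every spleen library, as was the case for 41.6% of all genes tested, yet the changes of Igtp (-0.23 ± 0.06) and Irgm1 (-0.27 ± 0.08) were small. The Irgm1 call was lost without tumour library 3 and without spleen library 3. Gbp7 had 109, 85 and 101 CPM in tumour and 134, 125 and 140 CPM in spleen libraries, a log2 fold change of -0.43 ± 0.09, and Gbp5 was near 41 CPM in both, at 41.1 ± 1.63 CPM in tumour and 40.7 ± 5.03 CPM in spleen (SD, n = 3 each).

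Scaling decided several of these directions. The 15 CD8 identity genes were all lower in tumour, and their sum ran from 4118 to 5560 CPM there against 9296 to 9352 CPM in spleen. Libraries were therefore also scaled so that the mean log2 level of these genes was equal. Single CD8 identity genes still differed then, with 4 called higher, 4 lower and 7 not called. Under this scaling the median of all genes moved up by 1.05 on the log2 scale, and 86.4% of all calls were higher in place of 52.0%. Of the members 8 were called higher and none lower, and Gbp7 (0.60), Gbp11 (0.14), Irgm1 (0.80), Irgm2 (0.40) and Igtp (0.83) changed sign. Tgtp2 kept its sign at -0.13 but was no longer called, and Gbp5 at 1.06 was then called higher. Under the CD8 identity scaling 7 of the 10 members lay below the median of all genes, 1.07, while Iigp1, Gbp3 and Gbp2 lay above it. A change of scaling moves nearly all genes together. A gene's place around the median could therefore hardly change, and it is no further check. Fibroblast and fibrosarcoma markers were up for 12 of 12 tested, from Col3a1 at 3080 ± 488 CPM in tumour and 1.47 ± 2.16 CPM in spleen downwards, and Lum had no count in spleen. Macrophage, monocyte and neutrophil markers summed to 344 to 471 CPM in tumour and 7.53 to 9.78 CPM in spleen, most of it Spp1 (384 ± 64.3 CPM in tumour), with Ly6g at 0 in both groups and Lyz2 at 6.99 CPM in tumour and 1.20 CPM in spleen. Of the 10 tested, 8 were higher, none lower and 2 not called, and all 10 were higher under the CD8 identity scaling. Among them were Cd14 (13.3 CPM in tumour and 0 in spleen) and C1qc (1.24 and 0.049 CPM). Dendritic cell markers summed to 335 to 419 CPM in tumour and 16.3 to 26.6 CPM in spleen, most of the tumour sum being Fscn1 (320 CPM in tumour and 2.08 CPM in spleen). Of the 7 tested, 5 were higher, Clec9a was lower (0.612 CPM in tumour and 1.24 CPM in spleen) and Flt3 was not called (1.77 and 2.17 CPM), and under the CD8 identity scaling 6 were higher and Clec9a was not called. NK and gamma delta T cell markers summed to 41.9 to 67.5 CPM in tumour and 14.3 to 17.5 CPM in spleen, with 5 of 6 higher and Trdc lower (3.12 CPM in tumour and 9.09 CPM in spleen), a call lost under the CD8 identity scaling.

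CD4 and regulatory T cell markers summed to 369 to 491 CPM in tumour and 38.4 to 43.0 CPM in spleen. That sum was mostly Ctla4 (242 CPM in tumour and 3.66 CPM in spleen) and Il2ra (90.8 and 2.87 CPM), which activated CD8 T cells also make. The defining markers Cd4 (0.520 CPM in tumour and 0.357 CPM in spleen) and Foxp3 (2.30 and 1.97 CPM) were not called, though both were under the CD8 identity scaling. B cell markers had the lower sum in tumour, at 55.2 to 71.3 CPM in tumour and 790 to 818 CPM in spleen. Endothelial markers summed to 47.8 to 56.6 CPM in tumour and 160 to 171 CPM in spleen, a sum set by Pecam1 (27.0 CPM in tumour and 166 CPM in spleen), the 1 lower of 6 tested. The other 5 were higher, among them Cdh5 (11.1 CPM in tumour and 0.277 CPM in spleen), Vwf (7.13 and 0.033 CPM) and Kdr (3.38 and 0.131 CPM), with Cldn5 at 2.03 CPM in tumour and no count in spleen. The part of RNA from such cells in the values of the GTPases and their pathway was not tested.

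In the wider family, 14 of the 16 other GBP and IRG genes were tested. Of these, 2 were higher, 10 lower and 2 not called in tumour, with a median log2 fold change of -1.34, and 4 higher, 7 lower and 3 not called with a median of -0.28 under the CD8 identity scaling. Over all genes tested, 40.2% were called lower, and 1685 of 15042 under the CD8 identity scaling. On chromosome 5, Gbp9 fell to 80.1 ± 2.62 CPM in tumour, against 235 ± 9.99 CPM in spleen libraries (log2 fold change -1.55 ± 0.05, edgeR adjusted p = 8.04e-09). Gbp8 at -1.5 ± 0.07 (3.47e-08), Gbp10 at -1.25 ± 0.10 (2.21e-06) and Gbp4 at -0.93 ± 0.05 (1.25e-07) were also called lower by edgeR, though under the CD8 identity scaling Gbp4 turned to 0.11 and Gbp10, at -0.19, was no longer called. Gbp6, with a log2 fold change of -0.04 ± 0.05 (adjusted p = 0.46), was not called by edgeR and turned to 1.01 under that scaling. The sum of Gbp6, Gbp10 and Gbp11, most of it Gbp6, gave -0.18.

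On chromosome 11 all 6 tested genes of the cluster around Irgm1 and Tgtp2 and all 3 of the cluster around Igtp and Irgm2 were called lower under TMM scaling, while under CD8 identity scaling 4 of them, the 3 regulators and Gm12250, turned positive. The lowest were 9930111J21Rik1 at -2.14 ± 0.10 (edgeR adjusted p = 4.07e-08), 9930111J21Rik2 at -2.12 ± 0.07 (6.01e-09) and Gm12185 at -2.07 ± 0.13 (2.64e-07), with Tgtp1 at -1.43 ± 0.07 (4.56e-08) and Gm12250 at -0.73 ± 0.09 (3.23e-05, but 0.32 under CD8 identity scaling). The 3 tested genes of the chromosome 18 cluster were all higher. Beside Iigp1, Gm4951 had 3.32 CPM in tumour and 0.0986 CPM in spleen (log2 fold change 4.99 ± 0.48, edgeR adjusted p = 7.35e-06). F830016B08Rik had 7.95 ± 1.83 CPM in tumour and no count in any spleen library, at least 161-fold higher when set against 3 counts over the spleen group. On chromosome 7, Irgc1 fell by 4.17 ± 0.50 on the log2 scale, with 0.134 CPM in tumour and 2.48 CPM in spleen (adjusted p = 3.64e-05), and Irgq was not called (0.0726), by edgeR. Gbp2b had 1 count in 1 spleen library and none elsewhere.

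Of 4 other interferon-induced GTPases tested, 1 was lower, Gvin1 at -0.58 ± 0.06 (edgeR adjusted p = 9.48e-06), and 3 were not called, among them Mx2 at -0.54 ± 0.27 (0.0878). Under the CD8 identity scaling Gvin1 turned to 0.47.

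In the tumour comparison Ifng and Irf8 changed in the opposite direction from the cultures, as did Jak2 under TMM scaling. Ifngr1, Ifngr2 and Irf1 were higher in both comparisons. The counts by list below stand beside 43.6% of all genes called higher and 40.2% lower. Under the CD8 identity scaling, 10729 of all 15042 genes were called higher and 1685 lower. Ifng averaged 54.7 ± 6.51 CPM in tumour and 0.950 ± 0.314 CPM in spleen (SD, n = 3 each), a log2 fold change of 5.83 ± 0.18 (SE; edgeR adjusted p = 5.66e-09). Ifngr1 rose to 608 ± 68.2 CPM in tumour, against 168 ± 6.67 CPM in spleen (1.85 ± 0.08, 3.28e-08), and Ifngr2 by 0.48 ± 0.10 (0.00196), by edgeR. Jak1 fell by 1.30 ± 0.07 on the log2 scale (7.66e-08) and Jak2 by 0.17 ± 0.07 (0.0415), by edgeR, and the Jak2 value turned to 0.87 under the CD8 identity scaling and was no longer called without any 1 of spleen libraries 1, 2 and 3 or tumour libraries 2 and 3 (adjusted p between 0.0801 and 0.252). Irf1 rose by 0.74 ± 0.14 (0.00107) and Irf8 by 3.71 ± 0.18 (5.6e-07). Of the 6 receptor and signalling genes, 4 were higher and 2 lower, or 5 higher and 1 lower under the CD8 identity scaling.

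Among the type I receptor genes and the response element complex, 1 was higher and 4 lower (2 higher and 3 not called under CD8 identity scaling), with Irf9 at -1.13 ± 0.06 (edgeR adjusted p = 8.57e-08) and Ifnar2 at -1.08 ± 0.06 (1.24e-07), neither of which was called under the CD8 identity scaling (-0.09 and -0.04). Of 8 inhibitors, 1 was higher, 5 lower and 2 not called (4 higher and 4 not called under CD8 identity scaling), with Ptpn6 at -1.04 ± 0.08 (1.08e-06) and Irf2, which competes with Irf1, at -0.94 ± 0.05 (1.31e-07), and both were near 0 under that scaling (0.0014 and 0.11). Target genes of interferon gamma gave 7 higher, 9 lower and 2 not called of 18 tested, or 15 higher, 1 lower and 2 not called under CD8 identity scaling. The chemokine Cxcl9 averaged 38.4 ± 8.84 CPM in tumour and 0.510 ± 0.0350 CPM in spleen (edgeR adjusted p = 3.39e-08), whereas Samhd1, which depletes nucleotides, fell by 1.52 ± 0.06 on the log2 scale (1.18e-08). Of 22 type I targets, 5 were higher, 16 lower and 1 not called, with a median of -0.79, among them Ddx58 at -1.32 ± 0.06 (4.33e-08) and Herc6 at -1.22 ± 0.05 (3.47e-08). Under the CD8 identity scaling the counts were 9 higher, 2 lower and 11 not called, and Ddx58 (-0.26) and Herc6 (-0.17) were no longer called.

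The autophagy genes gave 6 higher, 1 lower and 3 not called of 10 (10 higher under CD8 identity scaling), led by Gabarapl1 at 88.8 ± 3.88 CPM in tumour and 4.47 ± 0.409 CPM in spleen (log2 fold change 4.31 ± 0.08, edgeR adjusted p = 8.24e-10) and Map1lc3a at 3.68 ± 0.18 (7.03e-08). Of 8 inflammasome genes, 6 were higher, 1 lower and 1 not called, with a median of 2.56 (7 higher and 1 lower under CD8 identity scaling). Beside both counts, 43.6% of all genes tested were called higher, and 10729 of 15042 under the CD8 identity scaling. Casp4 averaged 13.9 ± 0.385 CPM in tumour and 0.858 ± 0.285 CPM in spleen (adjusted p = 7.19e-08), and Il1b 7.49 ± 3.41 CPM in tumour and 0.0814 ± 0.0740 CPM in spleen (1.02e-05), by edgeR. Casp4 was thus higher in ND-646 cultures and in tumour libraries alike.

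**Figure D4:**
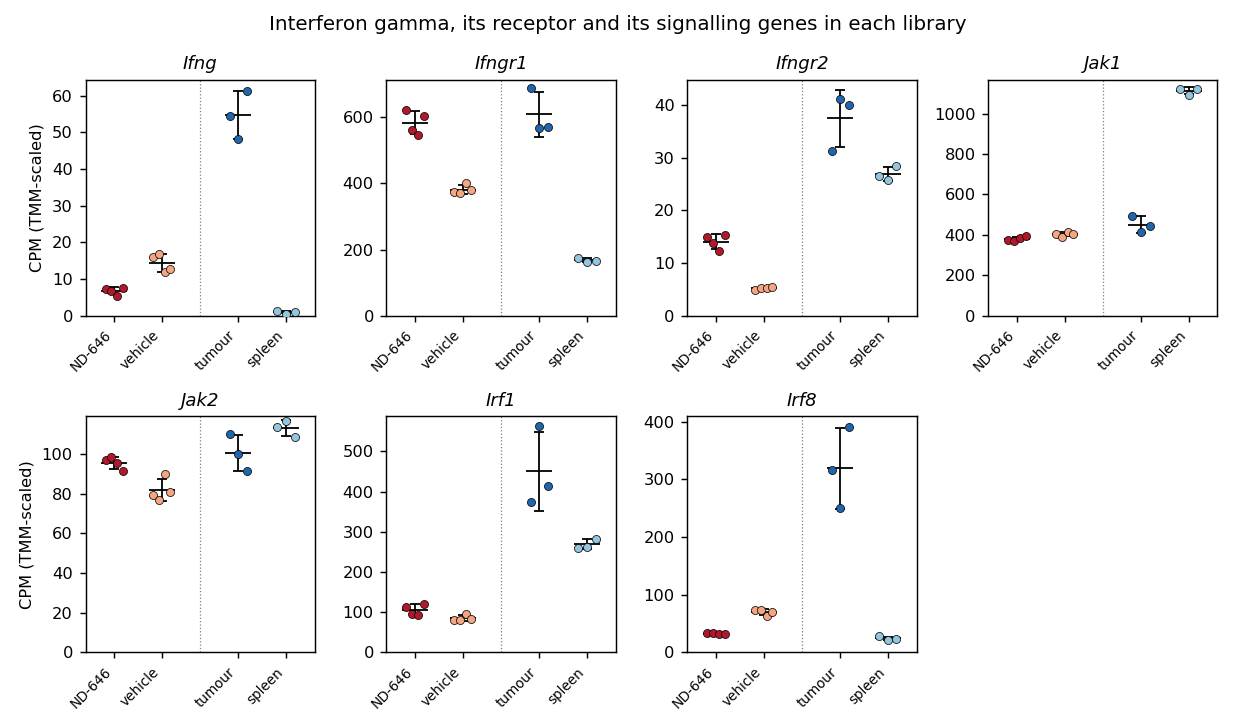
Level of Ifng, its receptor chains and signalling genes in every library (CPM, vertical axis, with the mean and SD of each group), ND-646 left of vehicle and tumour left of spleen. Ifng is lower in ND-646 than in vehicle cultures (6.78 and 14.4 CPM on average) and higher in tumour than in spleen (54.7 and 0.950 CPM).

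Compared per kilobase of the longest annotated transcript, the order of the members differed between groups. Igtp led in ND-646 cultures (127 ± 18.2 CPM per kb) and in vehicle cultures (95.6 ± 3.52), without overlap with the next member. In ND-646 cultures the next levels were Gbp2 at 26.8 ± 3.09, Tgtp2 at 25.0 ± 3.69, Gbp11 at 24.1 ± 4.38 and Gbp7 at 23.6 ± 0.967 CPM per kb. Their ranges overlapped, but within every ND-646 culture Gbp2 was the highest of them, while the order of the others varied. Gbp11 in vehicle cultures was at 4.29 ± 0.607. In tumour libraries Gbp2 led at 85.3 ± 10.9 CPM per kb with Igtp at 69.9 ± 5.70. Their ranges overlapped, but Gbp2 was above Igtp within every tumour library. In spleen libraries Igtp was at 82.0 ± 1.58 and Tgtp2 at 77.6 ± 2.73 CPM per kb, without overlap, and Gbp11 was last at 1.08 ± 0.139. As a share of the members' summed CPM, Gbp2 made up 23.8% in tumour and 11.9% in spleen, and Tgtp2 10.6% in tumour and 24.5% in spleen.

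Several libraries had most members on the same side of their group mean, though not all libraries did. In ND-646 cultures 1 and 4, 8 and 10 of the members were above their group mean, and in cultures 2 and 3, 9 each were below it. These are the pairs of cultures that also resembled each other over all genes. In vehicle culture 3 all 10 members were above the group mean, and in vehicle cultures 1 and 2, 8 and 9 were below, whereas vehicle culture 4 had 7 above and 3 below. Among the sorted libraries, tumour library 1 had 8 below, tumour libraries 2 and 3 had 7 and 8 above, spleen library 2 had 9 below, spleen library 3 had 8 above, and spleen library 1 had 5 above and 5 below. The median coefficient of variation of the members was 11.6% in ND-646, 8.54% in vehicle, 11% in tumour and 4.07% in spleen libraries.

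**Figure D5:**
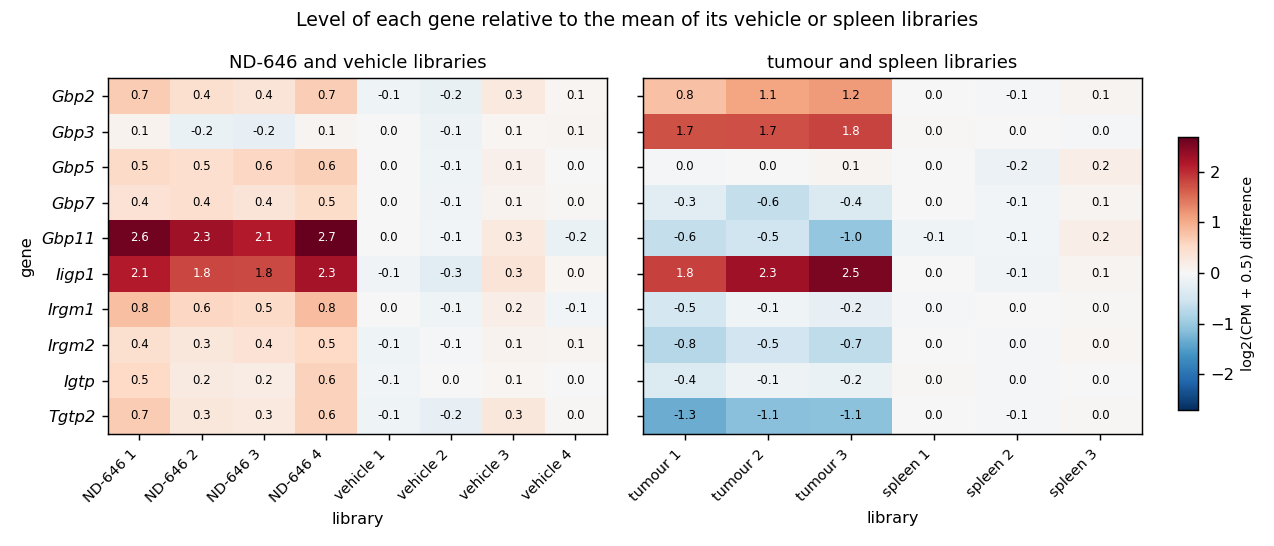
Log2 level of each member in every library relative to the mean of the vehicle or of the spleen libraries (colour scale and printed values; members by row, libraries by column). Gbp11 and Iigp1 stand out in the ND-646 columns, each with higher values in cultures 1 and 4 than in 2 and 3, and Gbp3 and Iigp1 in the tumour columns.

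The genes most like the members were found from the correlation of each gene's log2 CPM with the mean of the scaled members, taken over the 8 cultures and over the 6 sorted libraries, and ranked by the lower of both values. Of 11825 genes compared, the first 5 were Nfu1 (0.95 over the cultures and 0.96 over the sorted libraries), Dse (0.97 and 0.92), Dusp23 (0.92 and 0.92), Tbck (0.92 and 0.93) and Parp3 (0.95 and 0.91). These values are descriptions over few libraries that share their groups. The nearest family genes outside the members were Gbp10 (0.96 and 0.81, rank 68) and Gbp6 (0.95 and 0.81, rank 69). The value for Ifng was -0.85 over the cultures and -0.69 over the sorted libraries. The second is set against a mean over members that differed in direction and with the scaling, and Ifng was higher in tumour, as were Iigp1, Gbp3 and Gbp2.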

How the data were processed

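The data, as deposited by the authors, are estimated counts for every gene symbol in a table for each experiment. They were taken as not normalized because their column totals differ. STAR, Salmon and DESeq2 are named without versions or roles in the submitters' processing notes, and no genome build or use of strand is stated there, so the coordinates printed are those of the RefSeq promoter table, on its own build. Of the deposited values, 9.16% in the culture table and 9.15% in the table of sorted cells were not whole (tolerance 1e-06), and counts were rounded. Estimated counts divide the reads of near-identical genes by a model, which makes close paralogs less certain.

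Groups were read from the sample titles. Each table was fitted apart under R 4.3.3 by the quasi-likelihood test of edgeR 4.0.16 in its robust form, after filterByExpr and with TMM factors. P-values were adjusted over all genes by Benjamini-Hochberg, with a threshold of 0.05. The SE is that of the log2 fold change, taken from the F statistic. CPM values are scaled to 1e+06 per TMM-scaled library. Alternatives were DESeq2 1.42.0 (size factors and Wald test), limma-voom (limma 3.58.1), scaling by CD8 identity genes, no filter, a replicate block, a 2-fold minimum, summed paralogs and leaving out each library. Members and gene lists were chosen with earlier results of these data known. Named were all members, all tested family genes, a fixed set of interferon gamma signalling genes, the 2 smallest p-values of each other pathway list, the most abundant marker of a list (other markers named were chosen after their values were seen) and the 5 genes most like the members. A gene of the signalling set is not reported here. Shared sequence was measured as 31-base words of GENCODE M21 transcripts, and lengths are of the longest transcript there. Every pair of replicates differed beyond sampling noise by a chi-square test. The fits were tested on simulated data.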

Additional observations from a re-analysis of the deposited data

How the results depend on the processing

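Most results kept their direction and their side of the threshold. Over the alternatives, 691 of the values for single genes did so, 24 passed the threshold, 26 no longer did and 19 reversed. With a 2-fold minimum, 441 genes were called with ND-646 and 5996 in tumour, and 2 members were higher with ND-646, and 2 higher and 1 lower in tumour, since a larger change was asked for. Under CD8 identity scaling 8 members were higher and 0 lower in tumour. That scaling reversed Gbp3 (0.046) and Jak1 (0.017) with ND-646 and Gbp7 (0.60), Gbp11 (0.14), Irgm1 (0.80), Irgm2 (0.40), Igtp (0.83), Gbp4 (0.11), Gbp6 (1.01), Gm12250 (0.32) and Jak2 (0.87) in tumour, where it also ended the Gbp10 call and added Gbp5 (1.06). Summing Gbp3 with Gbp7 gave 0.34 with ND-646 and 0.25 in tumour. Gbp6 in tumour, near 0 under TMM scaling, was 0.026 with DESeq2 size factors and 0.026 with its Wald test. Leaving out 1 library moved it between -0.065 and 0.030 and Gbp5 in tumour between -0.073 and 0.14. The cause of these reversals was not tested.

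Leaving out each library in turn gave 7424 to 7932 calls with ND-646 and 12336 to 12928 in tumour, with 8 to 9 members higher with ND-646, and 3 higher and 5 to 6 lower in tumour. The Irgm1 call in tumour was lost with DESeq2 size factors and DESeq2's Wald test, the Igtp call with the Wald test, and the Tgtp2 call with ND-646 without the filter on low counts. The labels do not say whether the replicate numbers pair the samples. Deviations of same-numbered libraries correlated at -0.14 to 0.06, but deviations from means of 3 or 4 libraries cannot settle this. With the replicate block, 7864 and 12492 genes were called, Tgtp2 and Irf1 (adjusted p = 0.0539) with ND-646 were not, and 9930111J21Rik2 (0.0308) was, by edgeR. With 3 or 4 libraries a group, small changes such as those of Igtp and Irgm1 in tumour are near the limit of what these data resolve.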
